A study of Mus musculus with 2 samples.

Results

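The miR-34 genes are Mir34a, Mir34b and Mir34c, and they were taken from the count tables by their GENCODE M21 gene names. They are 3 of the 2202 microRNA genes counted in the heart of male B6CASTF1/J mice. These animals are F1 hybrids of the C57BL/6J and CAST strains and were 10 days old, and neither library carries a treatment or an engineered allele. Small RNA of heart tissue was sequenced in 2 libraries, biological replicates 1 and 2 of 1 group, so no condition can be compared. The labels give both samples one donor identifier but separate biosample identifiers. The 2 samples are called hearts below, though the sample labels used here do not say if each came from a single animal.

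MicroRNAs are cut from hairpin precursors and guide silencing complexes to messenger RNAs that pair with the seed, the bases near the 5′ end of the mature form. The miR-34 genes are known as direct transcriptional targets of p53, the tumour suppressor that responds to DNA damage, and their targets include cell cycle and survival genes. Mir34a is the widely expressed member and has been linked to cardiac ageing and injury. Mir34b and Mir34c are made from one primary transcript and are known from multiciliated epithelium, testis and brain.

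The mature sequences below show what ties the family together and what sets its genes apart. All 3 members had a hairpin entry in the RefSeq table (build GRCm38.p6, the same assembly as mm10), with 5 mature entries between them, and miR-34c-5p had none. Capitals mark the seed, bases 2 to 8 from the 5′ end.
mmu-miR-34a-5p: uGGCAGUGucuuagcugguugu
mmu-miR-34b-5p: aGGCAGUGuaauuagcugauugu
mmu-miR-449a-5p: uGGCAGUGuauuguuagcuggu
mmu-miR-449c-5p: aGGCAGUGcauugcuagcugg
mmu-miR-34a-3p: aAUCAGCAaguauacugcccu
mmu-miR-34b-3p: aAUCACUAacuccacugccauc
mmu-miR-34c-3p: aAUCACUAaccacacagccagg

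The first 4 of these forms carry the seed GGCAGUG. They were the only ones to do so among the 1738 mature forms of the table, which places Mir449a and Mir449c beside the miR-34 genes. The miR-449 genes are known from multiciliated cells. No mature entry was found for miR-34c-5p or for Mir449b, so whether those forms carry this seed could not be read from the table. On the other arm the seed AUCACUA was held by miR-34b-3p and miR-34c-3p and by no other form of the table, while miR-34a-3p has the seed AUCAGCA. The forms miR-34b-3p and miR-34c-3p are identical at 17 of 22 positions and differ by U11C, C12A, U16A, U21G and C22G, counted from the 5′ end with the base of miR-34b-3p first. Over their whole length miR-34a-5p and miR-34b-5p are 4 single-base changes, insertions or deletions apart, against 6 for miR-34a-5p and miR-449a-5p.

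Mir34a (ENSMUSG00000065493.1) lies on the plus strand at chr4:150068454-150068555 (mm10), and it overlaps an exon of Gm37795, an unclassified gene on the same strand. Mir34c (ENSMUSG00000065587.1, chr9:51103034-51103110) and Mir34b (ENSMUSG00000065492.1, chr9:51103562-51103645) lie on the minus strand, 451 bases apart. Both sit within an intron of Btg4, which is transcribed from the opposite strand. No member hairpin shares 20 bases with another counted hairpin. The longest shared run was 12 bases for Mir34a and 11 for Mir34b and Mir34c. Only exact runs were measured, so a near copy with scattered differences would not show. Whether reads of Mir34b and Mir34c could be exchanged was not tested.

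Replicate 1 held 3748432 microRNA counts on the gene strand and replicate 2 held 6305782. Levels are given as CPM, counts scaled to a total of 1000000 over the microRNA genes. The upper limit for an unseen gene, 3 counts, equals 0.800 CPM in the first library and 0.476 CPM in the second. Reads that map to several places, 36.8% and 48.1% of all reads, are in no gene count. Intervals cover counting error only. Amplified reads are not independent molecules, so the intervals may be too narrow even for that. The heart label was checked on a cardiac muscle list of 7 genes. The 3 that lie within myosin genes were abundant, Mir208a with 3795 and 1362 CPM, Mir499 with 3678 and 7542 CPM, and Mir208b with 794 and 3444 CPM. The other 4 were low, Mir1a-2 with 43.2 and 99.6 CPM and Mir1a-1, Mir133a-1 and Mir133a-2 between 0.534 and 4.28 CPM. These 4 share 20 bases or more with another counted hairpin, as do all 6 genes of a neural list, so their low counts say nothing of the tissue.

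Mir34a made up nearly all of the family in both hearts. It had 8259 counts in replicate 1 and 5245 in replicate 2, or 2203 CPM (exact Poisson 95% interval 2156 to 2251) and 832 CPM (809 to 855). Its mean was 1518 ± 970 CPM (SD, n = 2). Replicate 1 was the higher library, and the intervals did not overlap. Mir34a ranked 46 among all microRNA genes in replicate 1 and 78 in replicate 2, and 59 by its mean among the 340 genes that reached 10 counts in each library.

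Mir34c lay far lower. It had 276 and 133 counts, or 73.6 CPM (interval 65.2 to 82.8) and 21.1 CPM (17.7 to 25.0), with a mean of 47.4 ± 37.2 CPM (SD, n = 2). Again replicate 1 was the higher library and the intervals did not overlap. Its rank was 178 in replicate 1 and 232 in replicate 2.

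Mir34b lay near the limit of detection. It had 9 and 19 counts, or 2.40 CPM (interval 1.10 to 4.56) and 3.01 CPM (1.81 to 4.71), with a mean of 2.71 ± 0.433 CPM (SD, n = 2). Both values exceeded the limit of 3 counts, and their intervals overlapped. With fewer than 10 counts in replicate 1 it is the 1 member of 3 outside the 340 genes. It was tested only under alternative settings, which were no filter, a minimum of 5 counts and the column over both strands.

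**Figure D1:**
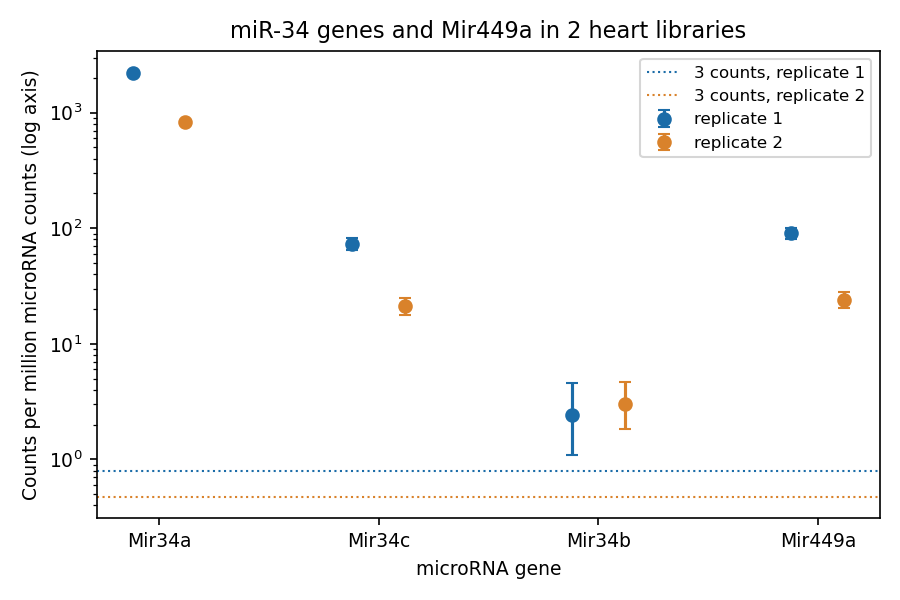
CPM (log axis) of Mir34a, Mir34c, Mir34b and Mir449a in replicate 1 (blue) and replicate 2 (orange). Bars are exact Poisson 95% intervals and dotted lines mark 3 counts in each library. Mir34a stands at 832 CPM or more in both libraries, Mir34c between 21.1 and 73.6 CPM and Mir34b at 2.40 and 3.01 CPM.

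The order of the levels, Mir34a over Mir34c over Mir34b, was the same in both libraries, and within each library no neighbours in that order had overlapping intervals. Of the counts of the 3 members, Mir34a took 96.7% in replicate 1 (exact Clopper-Pearson 95% interval 96.3% to 97.0%) and 97.2% in replicate 2 (96.7% to 97.6%). Mir34c took 3.23% (2.87% to 3.63%) and 2.46% (2.07% to 2.91%). Mir34b took 0.105% (0.0482% to 0.1999%) and 0.352% (0.212% to 0.549%). These counts are per hairpin gene, so the 5p and 3p arms printed above cannot be told apart in them. Nearly every read of a member lay on the strand of its gene. The opposite strand held 1 count for Mir34b in replicate 1 and 0 for the other members and libraries.

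The members as a whole took 0.228% of all microRNA counts in replicate 1 (interval 0.223% to 0.233%) and 0.0856% in replicate 2 (0.0833% to 0.0879%). The lower share came from Mir34a and Mir34c. After scaling by the trimmed mean of M-values (TMM), the level of Mir34a in replicate 2 was 2.40-fold below that in replicate 1 (interval 2.32 to 2.48; log2 ratio -1.26). Mir34c was 3.16-fold lower (interval 2.56 to 3.92; log2 ratio -1.66). Mir34b had a log2 ratio of 0.43 with an interval from -0.74 to 1.80, which includes 0.

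An exact two-sided binomial test against the scaled library sizes, adjusted by Benjamini-Hochberg over the 340 genes, called Mir34a and Mir34c lower in replicate 2. The adjusted p was 2.91e-29 for Mir34c and too small for the software to tell from 0 for Mir34a. Without the filter, Mir34b had an adjusted p of 0.697. Such calls are common between these 2 libraries, since the test sets replicate 2 against replicate 1 with counting error as the only spread. Of all 340 genes 72.1% were called, 37.9% as lower and 34.1% as higher in replicate 2, and 34.4% of the 733 genes were called without the filter. Being called is therefore no distinction of the members.

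The size of each difference was set against the spread between the hearts. Over the 340 genes the log2 ratio had a median of -0.05 and an SD of 0.92, and 68 genes (20.0%) were at least 2-fold apart. Among them 24 had a lower ratio than Mir34a and 13 a lower ratio than Mir34c. The absolute ratio of Mir34a exceeded that of 85.9% of the genes and that of Mir34c exceeded 92.4%. Both members thus lay toward the low edge of the spread between the hearts but within it, as the plot of all levels shows. The biological coefficient of variation from the common dispersion of edgeR was 0.416.

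**Figure D2:**
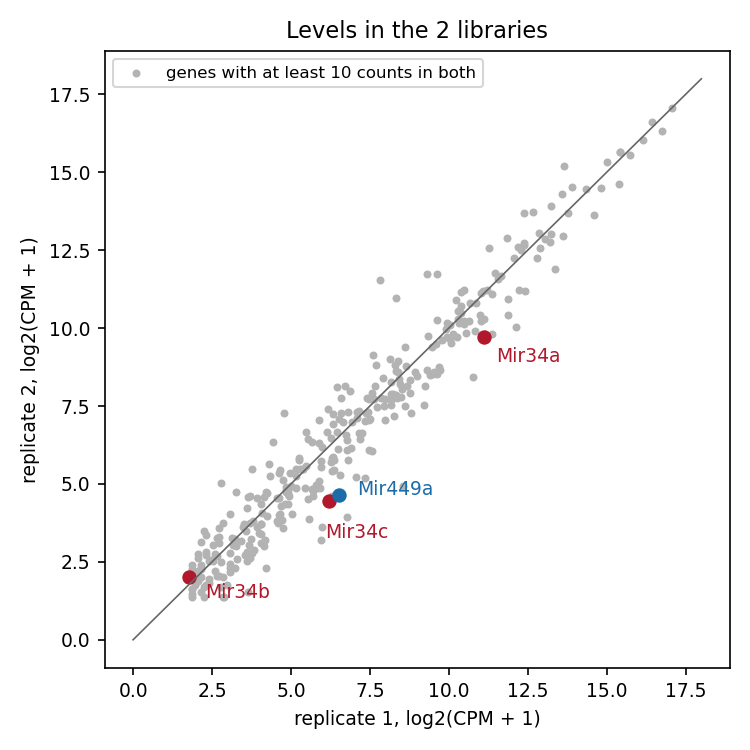
Level of each gene in replicate 1 (x axis) and replicate 2 (y axis) as log2(CPM + 1), with grey points for the 340 genes that reached 10 counts in each library, red points for the miR-34 genes and a blue point for Mir449a. The line marks equal values. Mir34a, Mir34c and Mir449a lie under the line, and Mir34b lies close to it near the low end.

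The balance between the members also differed between the 2 libraries, by tests that take counting error as the only spread. A ratio of 2 members within a library does not depend on the scaling. For each count of Mir34c there were 29.9 counts of Mir34a in replicate 1 and 39.4 in replicate 2 (odds ratio 0.759, exact 95% interval 0.610 to 0.939). Fisher's exact two-sided test gave p = 0.00992 for this pair, and the value adjusted over the 3 pairs compared was the same. The log2 of the Mir34a to Mir34c ratio moved by 0.40, while the log2 ratio between libraries had an SD of 0.92 over the 340 genes. The first value is a difference between 2 genes and the SD is over single genes, so they are unlike measures. How often other gene pairs pass the same test was not counted, so passing it sets no pair apart. Mir34a to Mir34b had a ratio of 918 in replicate 1 and 276 in replicate 2 (odds ratio 3.32, interval 1.43 to 8.35; Fisher's exact p = 0.00283, adjusted 0.00425).

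The pair from the shared chromosome 9 transcript differed most. There were 30.7 counts of Mir34c for each of Mir34b in replicate 1 and 7 in replicate 2, an odds ratio of 4.38 (interval 1.82 to 11.3; Fisher's exact p = 0.000305, adjusted 0.000914). Mir34b took 3.16% of the counts of this pair in replicate 1 (exact Clopper-Pearson 95% interval 1.45% to 5.91%) and 12.5% in replicate 2 (7.70% to 18.8%). These tests compare the reads of 2 libraries, and for Mir34b they rest on 9 and 19 reads.

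Other microRNA genes that neighbour each other give a scale for that gap. On the same strand, within 10 kb and with at least 5 counts in each library, 112 further neighbouring pairs were found. The log2 ratios of 2 neighbours differed by a median of 0.51. Mir34b and Mir34c differed by 2.09, and 5 of the 112 pairs differed by more. Of the 21 pairs with a lowest count under 30, 1 differed by more, and their median was 0.41. Some pairs share a gene, such as Mir17 with Mir18 and Mir18 with Mir20a, so the pairs are not independent. Some hold a gene that shares 20 bases or more with another counted hairpin, such as Mir16-2 or Mir1a-2, whose level is uncertain. The measure of neighbouring pairs was chosen after the values of Mir34b and Mir34c were seen and describes these libraries only.

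**Figure D3:**
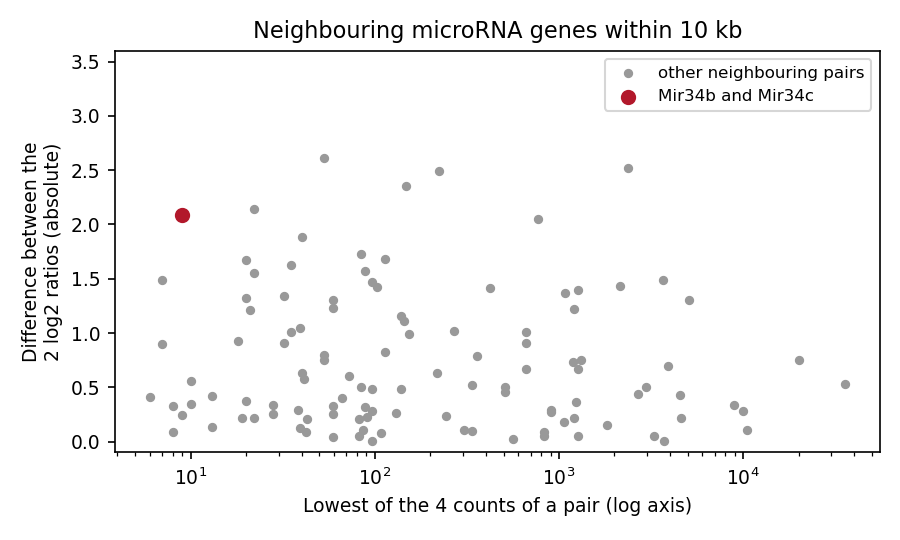
Absolute difference between the log2 ratios (replicate 2 over replicate 1) of 2 neighbouring microRNA genes, against the lowest of the 4 counts of the pair (log axis). Each grey point is 1 of 112 other pairs, and the red point is Mir34b with Mir34c, at 2.09 with a lowest count of 9.

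Among the genes with the seed of miR-34a-5p outside the family, Mir449a was clearly present and Mir449c was not. Mir449a (ENSMUSG00000065575.1, chr13:113037534-113037624, plus strand, within an intron of Cdc20b) had 339 counts in replicate 1 and 152 in replicate 2, or 90.4 CPM (exact Poisson 95% interval 81.1 to 100.6) and 24.1 CPM (20.4 to 28.3). It was thus higher in replicate 1, with no overlap of the intervals. Its log2 ratio of -1.76 (interval -2.05 to -1.48; adjusted p = 6.81e-39, exact binomial test) put it on the same side as Mir34a and Mir34c. Its neighbour Mir449c had 2 and 0 counts and Mir449b had 0 in both libraries. Both are below the limit of 3 counts.

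Over the miR-34 and miR-449 genes, Mir34a held 93.0% of the counts in replicate 1 (exact Clopper-Pearson 95% interval 92.4% to 93.5%) and 94.5% in replicate 2 (93.9% to 95.1%). Mir449a held 3.82% (3.43% to 4.23%) and 2.74% (2.33% to 3.20%), and Mir34c 3.11% (2.76% to 3.49%) and 2.40% (2.01% to 2.83%). The intervals of Mir449a and Mir34c overlapped in each library.

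Mir34b, Mir34c and the miR-449 genes are known from ciliated epithelium, so epithelial microRNAs were set beside them. The epithelial list of 7 genes, the miR-200 genes with Mir205 and Mir203, summed to 555 CPM in replicate 1 and 698 CPM in replicate 2. Its highest gene, Mir200c, had 403 and 443 CPM. Of its 7 genes 4 were called higher and 1 lower in replicate 2, against 34.1% and 37.9% of all 340 genes. Mir141 and Mir200c are neighbours in the genome, as are Mir429, Mir200a and Mir200b, so these calls may not be independent. Mir31, another microRNA known from epithelium, is not in that list and was looked at after its values were known. It had 375 and 29.3 CPM (log2 ratio -3.53), the same direction as Mir34c and Mir449a, and with it the sum was 929 CPM in replicate 1 and 727 CPM in replicate 2. The direction of the summed epithelial level thus depends on Mir31. In tissue RNA, fewer cells of a type and less RNA per cell cannot be told apart, and the part of cell makeup in these differences was not tested.

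Of other microRNA genes linked to p53, most had ratios on the other side of 0 from Mir34a and Mir34c. The list holds 15 genes reported as targets of p53 or as processed with its help, chiefly in tumour cells. All 15 passed the filter of 10 counts in each library. Of these, 10 were called higher in replicate 2 and 2 lower, against 34.1% and 37.9% of all 340 genes, and 3 did not pass the test. Many of the 15 are neighbours in the genome, such as Mir143 with Mir145a, Mir15a with Mir16-1 and Mir194-1 with Mir215. Their calls may not be independent, which the shares of all genes do not take into account. The median log2 ratio was 0.38, against -0.05 over all 340 genes. The miR-200 genes of the list, 5 of its 15, are also in the epithelial list. The hairpins of Mir194-1, Mir194-2, Mir107 and Mir16-1 share 20 bases or more with another counted hairpin, so the levels of these 4 are uncertain.

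Mir192, Mir194-1 and Mir215, which are among the best known p53 targets after miR-34, were called higher in replicate 2. Mir215 had 94.7 and 218 CPM (log2 ratio 1.34), Mir194-1 had 11.5 and 23.0 CPM (1.13) and Mir192 had 17.9 and 25.1 CPM (0.62). Mir194-2 had 10.9 and 10.3 CPM and did not pass the test.

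The pair Mir143 and Mir145a, known from smooth muscle, had log2 ratios of 0.38 and 0.81. Mir15a and Mir16-1, which restrain the cell cycle, had 0.21 and 0.90. Of the miR-200 genes, Mir200b (log2 ratio 1.92), Mir141 (0.68) and Mir200c (0.28) were called higher. Mir200a (-0.22) and Mir429 (0.00) did not pass the test.

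The 2 genes of the list called lower were Mir107 and Mir22. Mir107 had 4485 and 1044 CPM, and its log2 ratio of -1.96 was lower than those of Mir34a and Mir34c. Mir22, a microRNA of muscle and heart, had 7113 and 4881 CPM (log2 ratio -0.40). The miR-34 genes and the other p53-linked genes thus had no common direction between the hearts.

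**Figure D4:**
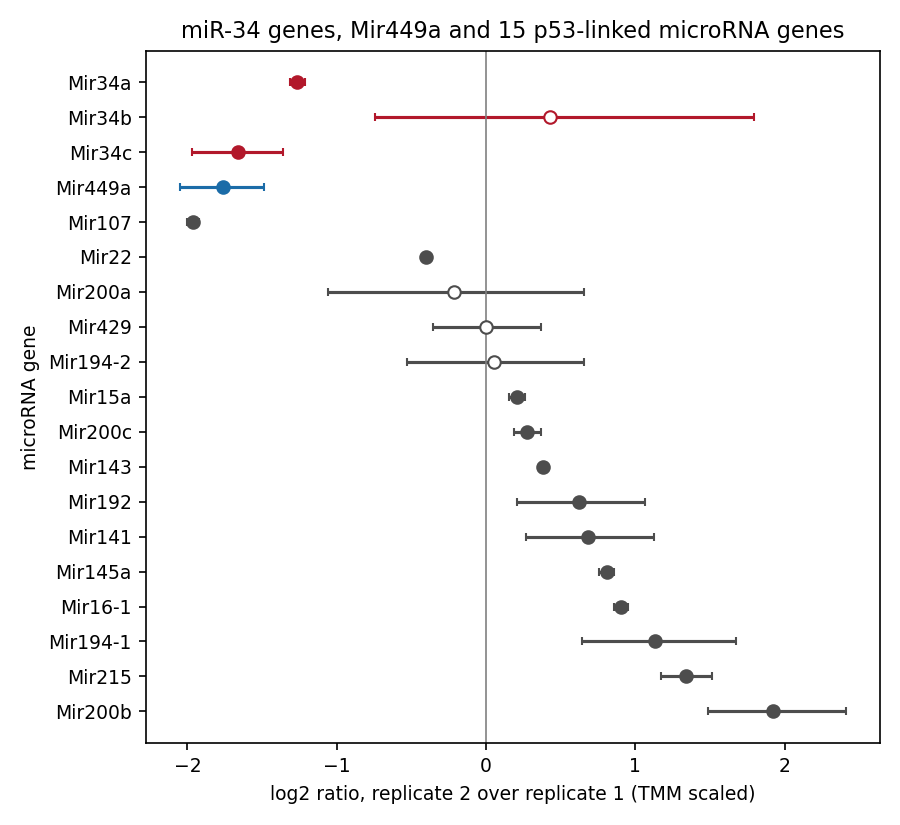
Log2 ratio of replicate 2 over replicate 1 after TMM scaling for the miR-34 genes (red), Mir449a (blue) and 15 other microRNA genes linked to p53 (grey). Bars are exact 95% intervals from the counts, and filled points passed the adjusted test while open points did not or were not tested under the filter (Mir34b). Mir34a, Mir34c, Mir449a, Mir107 and Mir22 lie left of 0 with filled points.

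The genes closest to a member in level were named by their distance over log2(CPM + 1) in the 2 libraries. For Mir34a these were Mir423 (2635 and 894 CPM, distance 0.28), Mir15b (1834 and 965 CPM, 0.34) and Mir676 (2075 and 1190 CPM, 0.52). For Mir34c they were Mir138-1 (77.9 and 23.3 CPM, distance 0.16), Mir449a (0.35) and Mir326 (60.03 and 28.1 CPM, 0.49). Mir138-1 shares 24 bases with the hairpin of Mir138-2, which makes its level uncertain. With 2 libraries such closeness says only that the levels are alike in both.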

How the data were processed

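For each library the authors deposited 1 table of unnormalized counts on mm10 with GENCODE M21, per the README text beside the tables. The aligner was not given in the sources used here, nor was the counting program. The tables have 3 count columns and no header. Their meaning (both strands, gene strand, opposite strand) was inferred from the values, and the gene strand was used. The column read as both strands held fewer counts than the gene strand, 2756527 against 3748432 in replicate 1 and 4558006 against 6305782 in replicate 2. Mir1a-2, with 162 and 628 counts on the gene strand, had 0 and 0 there. That column thus leaves out some reads of the gene strand. A further 4 entries name no gene (unmapped, several positions, outside genes, ambiguous) and stayed out of totals and tests. They held 57.6% of the reads in replicate 1 and 63.0% in replicate 2. All 2202 identifiers matched GENCODE M21, and mature sequences came from RefSeq.

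CPM is unscaled. Ratios used TMM factors over all genes (edgeR 4.0.16), a prior of 0.5 counts and exact binomial tests (scipy 1.17.1) with a threshold of 0.05. The test was run on simulated counts with set changes and counting error as the only spread. That check covers neither the TMM scaling nor spread between libraries. Totals, DESeq2 1.42.0 size factors, other filters and priors and the column over both strands were alternatives. Named genes are the members, genes with their seed, detected genes of the p53-linked list and the 3 nearest genes per tested member. Members and lists were chosen with earlier results of these data known.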

Additional observations from a re-analysis of the deposited data

How the results depend on the processing

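Mir34a and Mir34c kept their direction and their call, and Mir449a did too, under DESeq2 size factors, total counts, no filter, a minimum of 5 counts, a prior of 2 counts and the column over both strands. The log2 ratio ran from -1.41 to -1.19 for Mir34a, from -1.80 to -1.58 for Mir34c and from -1.90 to -1.68 for Mir449a. Mir34b stayed above 0, at 0.30 to 0.43, and passed the test under none of the 3 settings that admitted it. Total counts moved every log2 ratio by 0.14 and DESeq2 size factors by 0.08. The summed level of the members, 1568 CPM, was 4477 CPM with the 10 most abundant genes left out of the denominator, since the total is then smaller, and 642 CPM with all reads as the denominator, since the total is then larger. With the column over both strands it was 2142 CPM, since the total of that column is smaller (2756527 and 4558006 counts). The counts of Mir34a and Mir34c are the same in both columns. The summed level ran from 856 to 2279 CPM when a replicate was left out. The share of Mir34a ran from 96.7% to 97.2%. The p53-linked list kept 10 genes higher and 2 lower under each scaling and without the filter. The epithelial list with Mir31 added, chosen after the data were seen, summed to 929 and 727 CPM against 555 and 698 CPM. No paired analysis was possible because there is 1 group.

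With 2 libraries the spread between hearts rests on 1 difference per gene. Depth limits Mir34b, whose 9 and 19 counts leave a wide interval, and the 2 miR-449 genes at or below 3 counts. Reads that map to several places could not be assigned, and the arms of a hairpin are not separated.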
